A study of Arabidopsis thaliana with 18 samples.

Results

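The first hours of water uptake were followed in seeds of the Arabidopsis line NIL-DOG1 by setting 3 arrays of seeds imbibed for 6 h against 3 arrays of dry seeds. These 6 arrays, of 18 in the series, were chosen by the genotype and stage that the labels give. All 30014 genes of the deposited table were compared. NIL-DOG1, which the labels call wild type, is a near-isogenic line in which the DOG1 region of the strongly dormant accession Cvi stands in a Landsberg erecta background. Every array compared here carries that region, so both stages come from a dormant line. The dry seeds were freshly harvested, per the labels, and the replicates are called biological. The growth chamber gave 16 h light and 8 h dark. No source used here gives the light and temperature during imbibition, or says whether the imbibed and dry samples came from the same harvest. The protocol in the labels describes RNA extraction for siliques and imbibed seeds and does not name dry seeds. Further arrays were used beside these: 3 of rdo5-1 seeds imbibed for 6 h, 3 of rdo5-1 dry seeds, rdo5-1 being a mutant of the dormancy gene RDO5, and 3 of NIL-DOG1 siliques at 14 days after pollination.

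A mature dry seed holds messenger RNA that was laid down during maturation, and transcription and translation resume when it takes up water. Dormant and nondormant seeds both begin this phase. Whether germination follows depends largely on the balance between abscisic acid, which holds dormancy, and gibberellin, which breaks it. DOG1 is a central quantitative regulator of seed dormancy in this plant.

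Each value below is a log2 RMA value, 1 per gene and array, so a difference of 1 is a 2-fold change. Each array measures a gene relative to the rest of the RNA on it, and whole seeds hold embryo, endosperm and seed coat. Fewer cells of a type and less RNA per cell therefore cannot be told apart. A gene was called when its adjusted p in limma's test was under 0.05 (Benjamini-Hochberg over the 30014 genes), and "rose" and "fell" are used for called genes. Errors of fold changes are standard errors (SE) of the fit, and n was 3 arrays per group throughout.

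Imbibition for 6 h moved 24.9% of the genes measured, mostly by small amounts. Of 30014 genes, 4265 rose (14.2%) and 3195 fell (10.6%). A change of at least 2-fold was seen in 505 genes that rose (1.68%) and 452 that fell (1.51%). That balance depended on the scaling, since quantile normalization again gave 381 genes higher and 488 lower at 2-fold. At least 4-fold changes went more often downwards, with 36 genes higher and 60 lower, while 11 genes in each direction changed at least 8-fold. The median absolute log2 change was 0.16 over all genes and 0.50 over the 7460 called. The 3 imbibed arrays did not overlap the 3 dry arrays in 11451 genes (38.2%), which include 7337 of those called. Calls depended on brightness: 3.23% of the dimmest 3002 genes were called and 60.1% of the brightest 3002, where 1086 rose and 717 fell. The shares of all genes set beside the lists below are not matched for brightness. Imbibed arrays correlated with each other, and dry arrays with each other, at 0.991 to 0.994 across genes, and imbibed with dry arrays at 0.977 to 0.979. No array stood apart from its group.

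**Figure D1:**
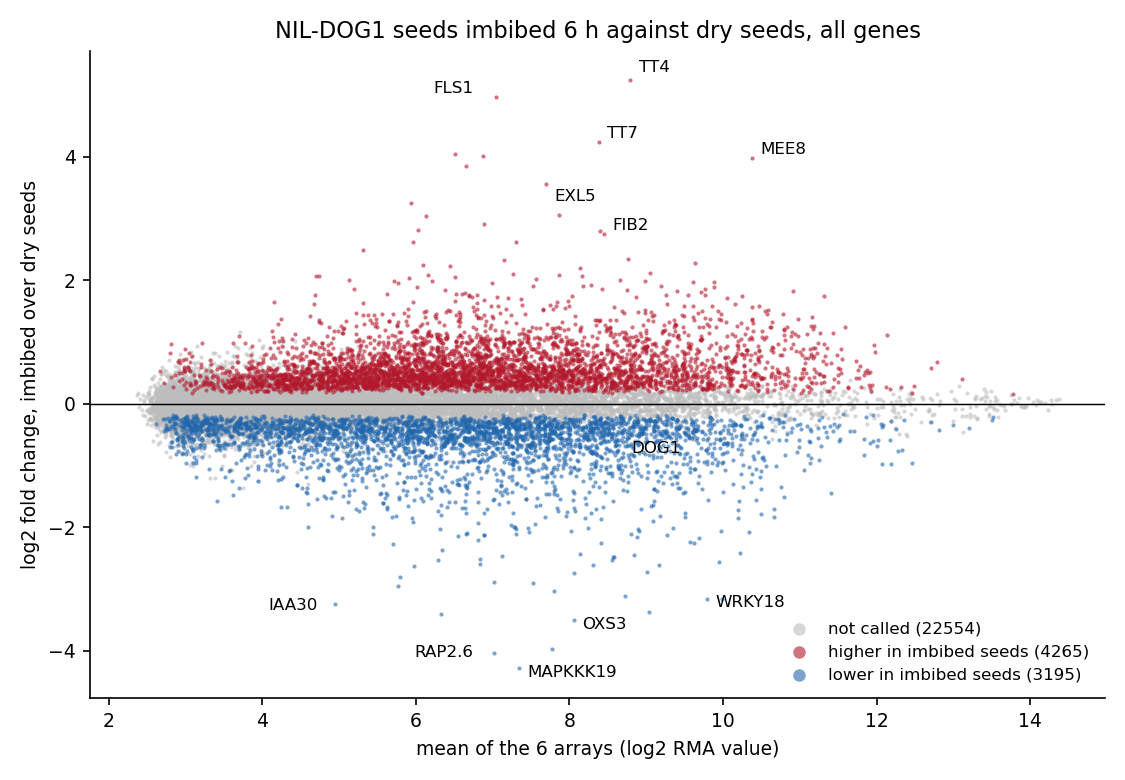
Each point is 1 of 30014 genes in NIL-DOG1 seeds, with the mean log2 RMA value of the 6 arrays on the horizontal axis and the log2 fold change of imbibed over dry seeds on the vertical axis. Red points are the 4265 genes that rose, blue points the 3195 that fell and grey points those not called. TT4 stands highest at 5.24 and MAPKKK19 lowest at -4.29.

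The steepest rises belonged to the early steps of flavonoid synthesis, which builds flavonols and related pigments from phenylalanine. TT4 (AT5G13930), chalcone synthase and the entry enzyme of the pathway, measured 11.50, 11.59 and 11.14 in imbibed seeds, against 6.04, 6.32 and 6.14 in dry seeds. FLS1 (AT5G08640), flavonol synthase, measured 9.50, 9.70 and 9.38 in imbibed seeds and 4.67, 4.48 and 4.53 in dry seeds. TT7 (AT5G07990), the flavonoid 3'-hydroxylase, measured 10.60, 10.54 and 10.37 in imbibed seeds and 6.15, 6.28 and 6.37 in dry seeds. For each of these genes every imbibed array stood far above every dry array. The largest changes were named only among called genes whose imbibed and dry arrays did not overlap, so that separation was required. The log2 fold changes were 5.24 ± 0.15 (SE; adjusted p = 4.16e-12) for TT4, 4.96 ± 0.14 (SE; adjusted p = 4.38e-12) for FLS1 and 4.24 ± 0.13 (SE; adjusted p = 6.31e-12) for TT7, which are rises of 37.8-fold, 31.2-fold and 18.9-fold.

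TT5 (AT3G55120), chalcone isomerase, had 9.30, 9.70 and 9.19 in imbibed seeds and 6.25, 6.43 and 6.33 in dry seeds. CHIL (AT5G05270), a noncatalytic chalcone isomerase-like protein that assists chalcone synthase, had 7.56, 7.98 and 7.44 in imbibed seeds, against 4.66, 4.60 and 4.57 in dry seeds. They rose by 3.06 ± 0.17 and 3.05 ± 0.21 on the log2 scale, more than 8-fold each. F3H (AT3G51240), flavanone 3-hydroxylase, had 10.88, 10.95 and 10.75 in imbibed seeds and was already bright in dry seeds, at 8.95, 8.92 and 8.81, a change of 1.97 ± 0.11.

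The rest of the flavonol pathway was gathered into a list after these values had been seen, so its counts describe it and test nothing. Of 17 genes from phenylalanine ammonia lyase to the flavonol glycosyltransferases, 12 rose (70.6%, against 14.2% of all genes) and none fell. The median log2 change was 1.14, against -0.016 over all genes. The general phenylpropanoid enzymes upstream moved less: PAL1 rose by 1.21 ± 0.19, PAL2 by 1.14 ± 0.15, C4H by 1.01 ± 0.11 and the coumarate ligase 4CL3 by 0.91 ± 0.13. 4CL1 did not pass the test (-0.13). Among flavonol glycosyltransferases UGT78D1 rose by 0.49 ± 0.10, while UGT78D2 (AT5G17050) had 8.17, 8.17 and 8.23 in imbibed seeds and 8.32, 8.28 and 8.30 in dry seeds and did not pass (adjusted p = 0.468). Of 3 related MYB factors that activate flavonol genes only MYB12 (AT2G47460) rose: it had 7.41, 7.30 and 6.93 in imbibed seeds, against 4.70, 5.05 and 5.14 in dry seeds, a log2 change of 2.25 ± 0.16 (SE; adjusted p = 2.66e-08). MYB11 (-0.15) and MYB111 (-0.17) were dim on every array and not called.

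The branch that leads from the same intermediates to anthocyanins and to the proanthocyanidins of the seed coat was mostly dim. Among its 9 listed genes, also gathered after values were seen, 1 rose (11.1%, where 14.2% of all genes rose) and none fell. The gene that rose was TT19 (AT5G17220), a glutathione S-transferase that carries flavonoids, with 7.40, 7.18 and 7.06 in imbibed seeds and 5.14, 5.40 and 5.11 in dry seeds, a change of 1.995 ± 0.15 (SE; adjusted p = 8.53e-08). DFR (AT5G42800), dihydroflavonol reductase and the first enzyme of the branch, had 3.58, 3.62 and 3.48 in imbibed seeds and 4.02, 3.64 and 4.06 in dry seeds, and was not called; the groups did not overlap, but by a narrow margin. LDOX, BAN, TT12, AHA10 and the regulators TT2, TT8 and PAP1 lay between 2.9 and 4.3 on all 6 arrays, overlapped between groups and were not called. Genes at such levels were seldom called, with shares of 3.23% to 11.8% in the dimmest 5 of 10 equal brightness classes. In NIL-DOG1 siliques FLS1 averaged 9.80 ± 0.16 (SD, n = 3), above dry seeds and close to imbibed seeds. TT4 (10.63 ± 0.24), TT7 (8.52 ± 0.17) and TT5 (8.33 ± 0.13) lay there between dry and imbibed seeds. MYB12 averaged 4.76 ± 0.094 in siliques.

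**Figure D2:**
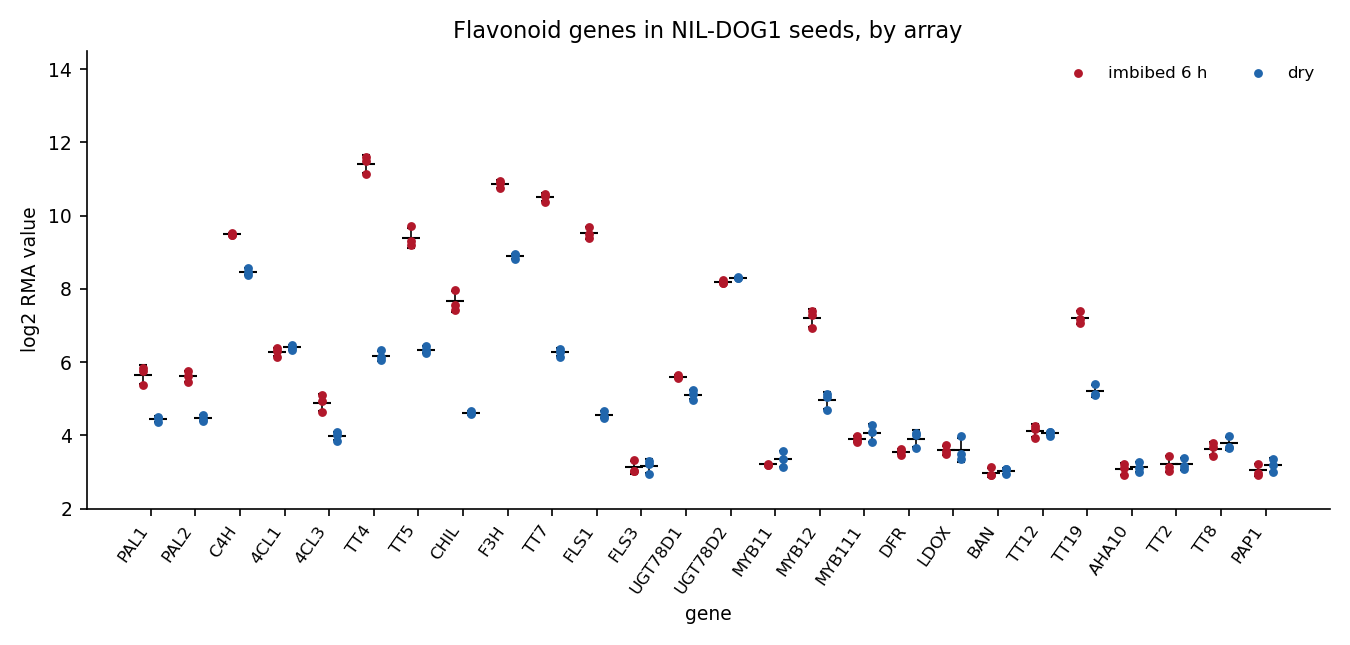
Log2 RMA values of flavonoid genes on each array of imbibed seeds (red) and dry seeds (blue), ordered along the pathway; short horizontal lines are means and vertical bars 1 SD of 3 arrays. From TT4 to FLS1 the red points lie clear of the blue ones, and from DFR to PAP1 only TT19 is well separated, DFR by a narrow margin.

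Large rises outside flavonoid synthesis included MEE8 (AT1G25310), EXL5 (AT2G17230) and sks17 (AT5G66920). MEE8, named for an embryo arrest phenotype, had 12.38, 12.27 and 12.46 in imbibed seeds and 8.25, 8.36 and 8.58 in dry seeds, a 15.8-fold rise (3.98 ± 0.15, adjusted p = 4.98e-11). EXL5, a member of the EXORDIUM-like family of secreted proteins, had 9.62, 9.42 and 9.38 in imbibed seeds and 5.76, 5.90 and 6.07 in dry seeds, a rise of 11.8-fold. For sks17, a SKU5-like protein of the multicopper oxidase family, the values were 7.56, 7.76 and 7.36 in imbibed seeds and 4.27, 4.32 and 4.36 in dry seeds. None of these overlapped between groups, which the rule for naming the largest changes required. KAT5, a 3-ketoacyl-CoA thiolase, rose by 2.62 ± 0.15 to 7.27 ± 0.24 in imbibed seeds, against 4.65 ± 0.19 in dry seeds (SD). Among genes with no symbol in the gene table, AT3G07460 (4.04 ± 0.12), AT5G10120 (4.02 ± 0.16) and AT3G07470 (3.85 ± 0.13) rose most, and the codes of the first and the last are adjacent.

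Genes for making ribosomes rose almost as a block. All 22 listed cytosolic ribosomal proteins rose, with a median change of 0.93 and a range of 0.49 to 1.59, where 14.2% of all genes rose. The median of the list on each array was 11.15, 11.01 and 11.05 in imbibed seeds, against 9.86, 9.93 and 9.95 in dry seeds. RPS6A (AT4G31700), a protein of the small subunit, had 11.28, 11.38 and 11.14 in imbibed seeds and 9.68, 9.79 and 9.57 in dry seeds, a log2 change of 1.59 ± 0.11 (SE; adjusted p = 1.75e-08). RPL5A (AT3G25520), of the large subunit, had 10.35, 10.15 and 10.44 in imbibed seeds and 8.97, 9.08 and 9.13 in dry seeds. The scaffold protein RACK1A rose by 1.27 ± 0.081, and its paralog RACK1C (AT3G18130) by 2.61 ± 0.12, with 8.69, 8.70 and 8.44 in imbibed seeds and 6.16, 6.01 and 5.82 in dry seeds. Ribosomal genes are bright, and the brightest genes had the highest share of calls. Many belong to families of near-identical copies whose probes can share signal, so single members are less certain than the list.

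Nucleolar factors, which process ribosomal RNA and assemble subunits, moved the same way. Of 23 listed, 20 rose (87.0%, against 14.2% of all genes) and none fell, with a median of 0.66. FIB2 (AT4G25630), a fibrillarin that acts in methylation of ribosomal RNA, had 9.95, 9.85 and 9.68 in imbibed seeds and 7.09, 6.87 and 7.25 in dry seeds, a 6.74-fold rise (2.75 ± 0.16, adjusted p = 4.48e-09). The other fibrillarin gene, FIB1, rose by 0.66 ± 0.064. CBF5 (AT3G57150), the pseudouridine synthase also known as dyskerin, had 9.72, 9.46 and 9.59 in imbibed seeds and 8.33, 8.32 and 8.30 in dry seeds. EBP1 rose by 1.17 ± 0.070, NOP56 by 1.13 ± 0.086, the nucleolin NUC1 by 0.95 ± 0.088 and NUC2 by 0.64 ± 0.11. NOF1, SWA1 and EIF6A were not called. The median of this list was 8.34, 8.22 and 8.18 on the imbibed arrays and 7.09, 7.21 and 7.25 on the dry arrays, and 6.05, 6.09 and 6.21 on the silique arrays.

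Most translation factors rose. Of 20 listed, 13 rose (65%, against 14.2% of all genes) and none fell, with a median of 0.38 and none reaching 2-fold. PAB4 (AT2G23350), a poly(A)-binding protein, had 7.88, 7.88 and 7.60 in imbibed seeds and 6.96, 6.96 and 6.84 in dry seeds (0.87 ± 0.085, adjusted p = 1.13e-06). PAB8 rose by 0.82 ± 0.099, the RNA helicase EIF4A1 by 0.79 ± 0.11 and the cap-binding EIF4E by 0.60 ± 0.084. EIF4A2 (0.041), EIF4G (0.19) and EIFISO4G1 (-0.034) did not pass the test.

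Most listed genes of the proteasome and of mitochondrial import rose as well, where 14.2% of all genes rose. Of 29 genes for the 26S proteasome, which degrades ubiquitinated proteins, 23 rose (79.3%) and 1 fell, with a median of 0.50. They are bright like the ribosomal genes: their median member stood at percentile 96.6 of the dry arrays, and 1086 of the brightest 3002 genes rose. PAD1 (AT3G51260), an alpha subunit of the core, had 9.42, 9.39 and 9.62 in imbibed seeds and 8.52, 8.51 and 8.600 in dry seeds (0.93 ± 0.074, adjusted p = 1.13e-07). PBD1 (AT3G22630), a beta subunit, had 10.76, 10.93 and 10.81 in imbibed seeds and 10.07, 9.94 and 10.03 in dry seeds. RPN10, a ubiquitin receptor of the regulatory particle, was the member that fell (-0.32 ± 0.082), and 4 of the 5 members not called were ATPases of the base: RPT1A, RPT3, RPT5A and RPT6A. Of 13 genes for mitochondrial protein import, 11 rose (84.6%) and none fell, with a median of 0.63 and a median percentile of 93.3 on the dry arrays. TIM23-2 (AT1G72750), the inner membrane channel, had 9.95, 10.06 and 10.04 in imbibed seeds and 8.80, 8.76 and 8.67 in dry seeds (1.27 ± 0.089, adjusted p = 2.96e-08). TOM40, the outer membrane channel, rose by 0.87 ± 0.082 and the small chaperone TIM9 by 0.91 ± 0.10.

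Heat shock genes rose more often than genes at large. Of 24 listed genes 11 rose (45.8%, against 14.2% of all genes) and 3 fell (12.5%, near the 10.6% of all genes). The median was 0.36. The median member stood at percentile 94.6 of the dry arrays, and 1086 of the brightest 3002 genes rose. HSP22.0 (AT4G10250), a small heat shock protein of the endomembrane system, had 9.93, 9.85 and 10.003 in imbibed seeds and 7.44, 7.53 and 7.79 in dry seeds (2.34 ± 0.26, adjusted p = 4.24e-06). HSP23.6 (AT4G25200), which is mitochondrial, had 11.83, 11.79 and 11.87 in imbibed seeds and 9.80, 10.11 and 10.09 in dry seeds. Both sets stood apart. The constitutive chaperone HSC70-1 rose by 1.37 ± 0.12. The 3 that fell were regulators: the drought and heat factor DREB2A (-1.42 ± 0.11), the seed factor HSFA9 (-0.51 ± 0.11) and HSFA7A (-0.39 ± 0.11). In siliques HSP22.0 averaged 3.72 ± 0.65 (SD, n = 3), well below both seed stages.

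**Figure D3:**
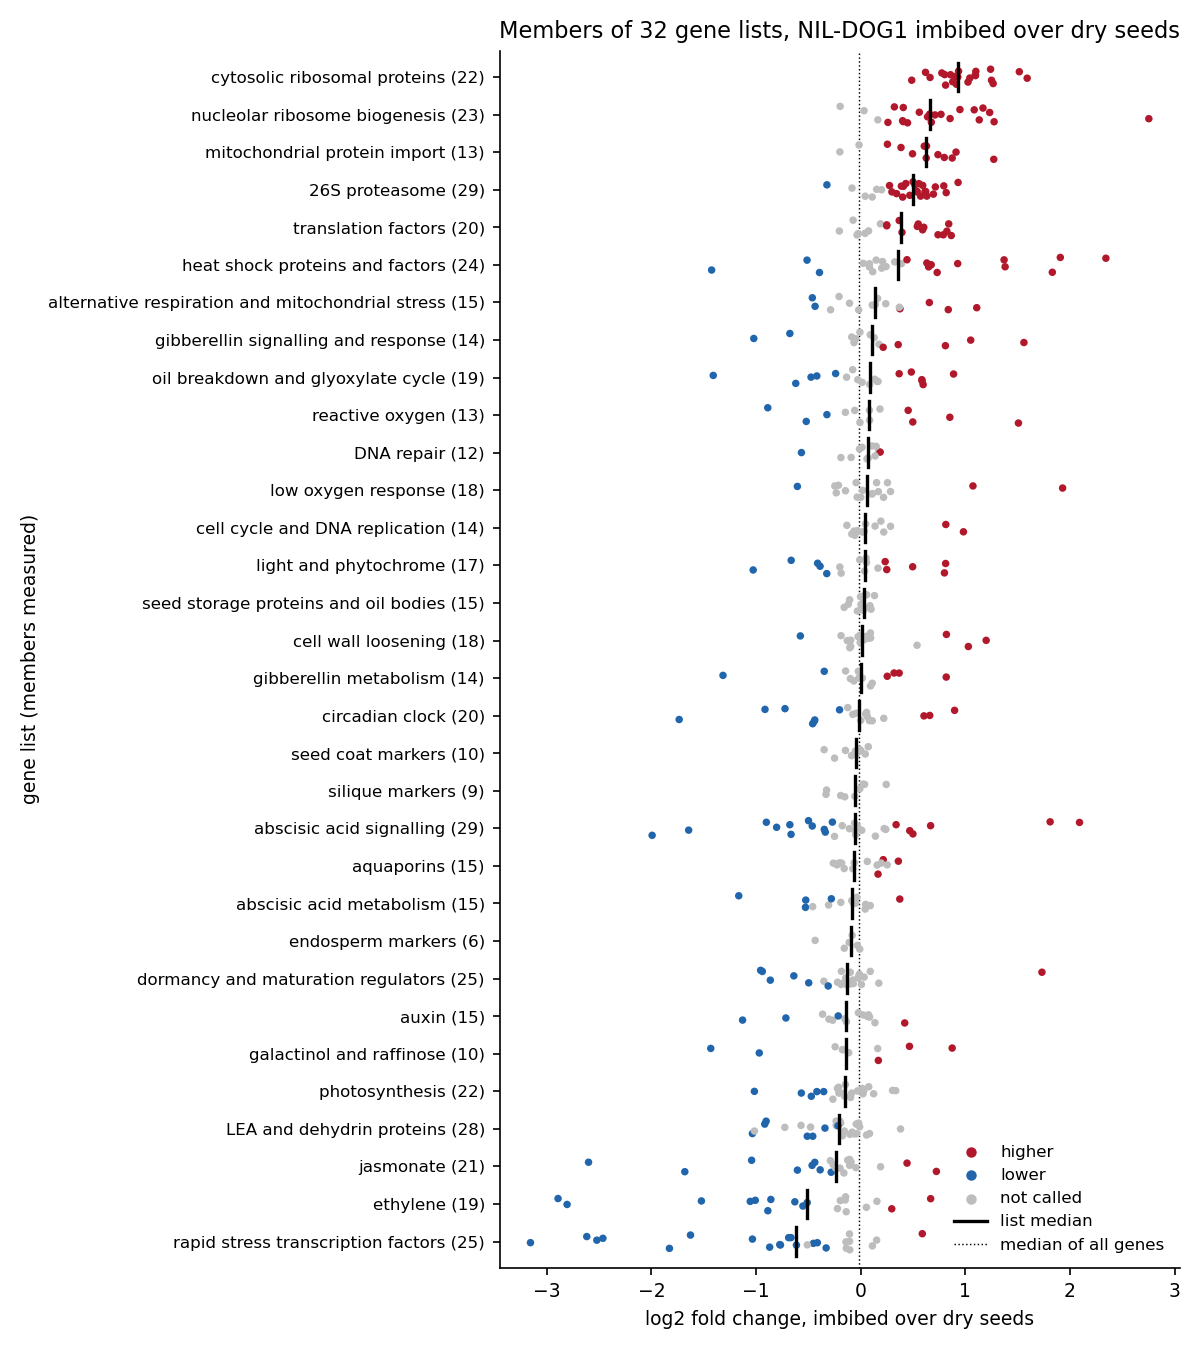
Log2 fold change of imbibed over dry seeds for each measured member of 32 gene lists (number of members in parentheses), ordered by list median (black bar); red points rose, blue points fell and grey points were not called. The cytosolic ribosomal proteins lie wholly to the right of 0, and most of the rapid stress transcription factors lie to the left of the dotted median of all genes at -0.016.

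The 3 steepest falls among genes with a symbol were those of MAPKKK19 (AT5G67080), RAP2.6 (AT1G43160) and OXS3 (AT5G56550). MAPKKK19, a kinase at the head of mitogen-activated protein kinase cascades, measured 5.24, 4.99 and 5.35 in imbibed seeds, against 9.54, 9.43 and 9.47 in dry seeds, 19.5-fold lower (-4.29 ± 0.13, adjusted p = 8.57e-12). RAP2.6, an ERF-family factor induced by stress and abscisic acid, measured 5.41, 4.80 and 4.78 in imbibed seeds and 9.06, 8.95 and 9.10 in dry seeds, 16.5-fold lower. OXS3, named for oxidative stress tolerance, measured 6.07, 6.35 and 6.49 in imbibed seeds and 9.78, 9.81 and 9.86 in dry seeds, 11.4-fold lower. No imbibed value reached a dry value in any of these, which the rule for naming the largest changes required. MAPKKK13 (AT1G07150) had 7.28, 7.45 and 7.34 in imbibed seeds and 10.76, 10.69 and 10.73 in dry seeds, a change of -3.37 ± 0.11.

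Further large falls were spread over several functions. IAA30 (AT3G62100), a member of the Aux/IAA family of auxin response proteins, had 3.45, 3.19 and 3.32 in imbibed seeds, close to the low end of the scale, and 6.53, 6.48 and 6.68 in dry seeds. HSPRO2, the homolog of a sugar beet nematode resistance gene, fell to 7.16 ± 0.18 in imbibed seeds, against 10.28 ± 0.019 in dry seeds (SD). BMY3, a beta-amylase family member (-3.04 ± 0.11), and CYP81D8, a stress-induced cytochrome P450 (-2.73 ± 0.11), fell too. Of genes without a symbol, the largest falls were those of AT2G22880 (-3.97 ± 0.23), AT2G03540 (-3.40 ± 0.18), which the gene table lists as a pseudogene, and AT5G66430 (-3.16 ± 0.27).

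Rapid stress transcription factors, which in vegetative tissue respond within minutes to wounding, cold or pathogens, mostly fell: 16 of 25 fell, where 10.6% of all genes did, and 1 rose, where 14.2% of all genes did, with a median of -0.61. The list median on each array was 5.56, 5.66 and 5.57 in imbibed seeds, against 7.30, 7.38 and 7.34 in dry seeds. WRKY18 (AT4G31800) measured 8.23, 8.18 and 8.25 in imbibed seeds and 11.43, 11.40 and 11.29 in dry seeds (-3.16 ± 0.11, adjusted p = 1.25e-11). WRKY33 (AT2G38470), a regulator of defence against fungi, measured 5.48, 5.66 and 5.57 in imbibed seeds and 8.18, 7.94 and 8.15 in dry seeds. The zinc finger factor ZAT6 (AT5G04340) measured 7.90, 7.93 and 7.73 in imbibed seeds and 10.49, 10.48 and 10.45 in dry seeds. Imbibed and dry values were widely separated in all of them. RD26, a NAC factor of the drought response (-2.46 ± 0.10), ZAT10 (-1.83 ± 0.096) and SZF2 (-1.63 ± 0.10) also fell. TCH2, a calmodulin-like touch gene, was the member that rose (0.59 ± 0.17). WRKY40 (-0.14), WRKY53 (-0.14) and CBF1 (-0.11) were not called.

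Ethylene genes fell in 10 of 19 cases (52.6%, against 10.6% of all genes) and rose in 2 (10.5%, against 14.2%), with a median of -0.51. Falls covered synthesis and response: ACS6 (AT4G11280), an ACC synthase, had 4.42, 4.32 and 4.41 in imbibed seeds and 7.38, 7.07 and 7.12 in dry seeds (-2.81 ± 0.11, adjusted p = 9.82e-11). ERF2 (AT5G47220), an ethylene response factor, had 5.52, 5.81 and 5.37 in imbibed seeds and 8.33, 8.51 and 8.54 in dry seeds (-2.89 ± 0.14, adjusted p = 6.47e-10). ERF6 (-1.52 ± 0.14), ERF5 (-1.06 ± 0.14), the F-box gene EBF2 (-1.01 ± 0.087), the ACC oxidase ACO4 (-0.89 ± 0.12) and the kinase CTR1 (-0.63 ± 0.064) fell with them. The receptor EIN4 (0.30 ± 0.085) and ERF104 (0.67 ± 0.18) rose. The receptors ETR1 and ERS1 and the core transducers EIN2 and EIN3 were not called.

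Jasmonate genes fell in 8 of 21 cases (38.1%, against 10.6% of all genes) and rose in 2 (9.52%, against 14.2%), with a median of -0.24. Of the 8 falls, 6 were of JAZ repressors, which are themselves induced by jasmonate. JAZ10 (AT5G13220) had 5.53, 5.47 and 5.60 in imbibed seeds and 8.21, 7.96 and 8.23 in dry seeds (-2.60 ± 0.084, adjusted p = 9.08e-12), and JAZ8 (AT1G30135) had 5.56, 5.97 and 5.73 in imbibed seeds and 7.63, 7.15 and 7.53 in dry seeds. JAZ1, JAZ2, JAZ3 and JAZ9 fell as well, with log2 changes of -1.04 to -0.44. JAZ7 (AT2G34600) ran the other way, with 6.45, 6.99 and 7.18 in imbibed seeds and 6.15, 6.36 and 5.93 in dry seeds (0.72 ± 0.15, adjusted p = 0.00183). Of the synthesis genes OPR3 fell (-0.28 ± 0.090), and LOX2, LOX3, LOX4, AOS, AOC1, AOC2 and AOC4 were not called.

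**Figure D4:**
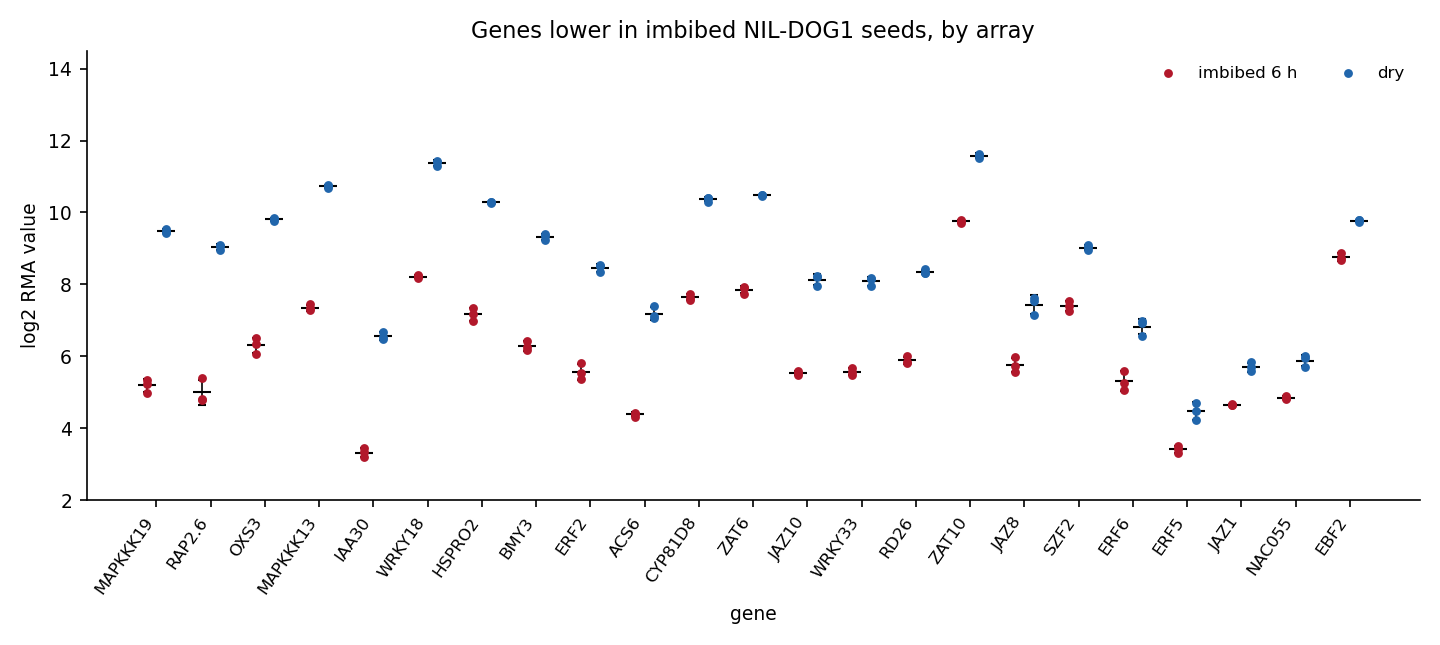
Log2 RMA values of genes that fell, on each array of imbibed seeds (red) and dry seeds (blue): the 12 largest falls with a symbol and further members of the stress, ethylene and jasmonate lists. Horizontal lines are means and vertical bars 1 SD of 3 arrays; MAPKKK19 averages 5.19 ± 0.19 in imbibed seeds and 9.48 ± 0.057 in dry seeds.

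Among 15 genes of abscisic acid metabolism 1 rose (6.67%) and 4 fell (26.7%), where 14.2% of all genes rose and 10.6% fell. CYP707A2 (AT2G29090), the hydroxylase that degrades the hormone in imbibed seeds, had 7.71, 7.80 and 7.86 in imbibed seeds and 7.72, 7.73 and 7.79 in dry seeds. The groups overlapped, and the log2 change was 0.043 ± 0.092 (SE; adjusted p = 0.812). Of the synthesis enzymes, the 9-cis-epoxycarotenoid dioxygenases NCED3 (-0.53 ± 0.090) and NCED5 (-0.52 ± 0.095) fell. The seed enzyme NCED6 (AT3G24220) had 4.39, 4.37 and 4.35 in imbibed seeds and 4.87, 4.72 and 4.90 in dry seeds, without overlap, but its change of -0.46 ± 0.20 (SE; adjusted p = 0.114) was not called. The fit uses the spread of all groups, and the silique arrays of this gene averaged 7.12 ± 0.63 (SD, n = 3). NCED9 was not called either (0.092 ± 0.090, adjusted p = 0.55). The glucosyltransferase UGT71B6 (AT3G21780), which conjugates the hormone, had 4.41, 4.63 and 4.37 in imbibed seeds and 5.65, 5.70 and 5.56 in dry seeds (-1.17 ± 0.12, adjusted p = 2.74e-06). ABA2 rose by 0.37 ± 0.12, a call that was lost when imbibed replicate 2 was left out (adjusted p = 0.144).

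Abscisic acid signalling genes moved in both directions among receptors and among phosphatases. Of 29 genes 6 rose (20.7%, against 14.2% of all genes) and 11 fell (37.9%, against 10.6%), with a median of -0.059. Their median member stood at percentile 84.2 of the dry arrays. In the class of 3001 genes next below the brightest 3002, 999 rose and 705 fell. Among receptors, PYL4 (AT2G38310) had 7.12, 7.48 and 7.03 in imbibed seeds and 4.95, 5.27 and 5.14 in dry seeds (2.09 ± 0.13, adjusted p = 7.88e-09). PYL7 (AT4G01026) had 8.11, 8.25 and 8.44 in imbibed seeds and 9.90, 9.90 and 9.94 in dry seeds (-1.64 ± 0.089, adjusted p = 2.14e-09). These receptors moved in opposite directions with no overlap in either. PYL8 rose by 0.47 ± 0.13, PYL9 (-0.68 ± 0.13) and PYL5 (-0.46 ± 0.071) fell, and PYR1 (AT4G17870), PYL1, PYL2 and PYL6 were not called.

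The type 2C phosphatases that inhibit the pathway divided as well. ABI1 (AT4G26080) had 6.46, 6.11 and 6.30 in imbibed seeds and 8.42, 8.31 and 8.12 in dry seeds (-1.99 ± 0.10, adjusted p = 1.48e-09). HAI3 (AT2G29380) had 10.59, 10.55 and 10.71 in imbibed seeds and 8.74, 8.87 and 8.81 in dry seeds (1.81 ± 0.12, adjusted p = 1.05e-08). Neither overlapped between groups, and they moved in opposite directions. ABI2 (-0.90 ± 0.078), HAI1 (-0.67 ± 0.12), HAB2 (-0.50 ± 0.074), PP2CA (-0.34 ± 0.090) and HAB1 (-0.27 ± 0.092) fell with ABI1, while HAI2 and AHG1 were not called. Among kinases OST1 rose by 0.50 ± 0.12 and SNRK2.2 and SNRK2.3 were not called. Of the transcription factors, ABI4 (AT2G40220) had 5.95, 5.85 and 5.84 in imbibed seeds and 5.41, 5.04 and 5.19 in dry seeds (0.67 ± 0.11, adjusted p = 0.000173). ABI3 (AT3G24650), a master regulator of maturation, had 7.26, 7.19 and 7.17 in imbibed seeds and 6.96, 6.99 and 6.99 in dry seeds. Its arrays did not overlap, yet the change of 0.22 ± 0.084 (SE; adjusted p = 0.0639) was not called.

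Gibberellin metabolism gave 4 rises (28.6%) and 2 falls (14.3%) among 14 genes, where 14.2% of all genes rose and 10.6% fell. GA3OX1 (AT1G15550) and GA3OX2 (AT1G80340) encode the oxidases that make active gibberellin in germinating seeds. GA3OX1 had 4.31, 4.22 and 4.26 in imbibed seeds and 4.35, 3.89 and 4.23 in dry seeds, and GA3OX2 had 4.71, 4.62 and 4.83 in imbibed seeds and 4.72, 4.74 and 4.76 in dry seeds. Both overlapped between groups, with changes of 0.11 ± 0.17 (SE; adjusted p = 0.731) and -0.018 ± 0.096 (SE; adjusted p = 0.932). Upstream, GA20OX3 (AT5G07200) had 5.55, 5.52 and 5.21 in imbibed seeds and 4.57, 4.68 and 4.58 in dry seeds (0.82 ± 0.13, adjusted p = 0.000151), and the kaurene oxidase GA3 rose by 0.37 ± 0.073. The deactivating enzyme GA2OX6 (AT1G02400) had 5.58, 5.98 and 6.39 in imbibed seeds and 7.28, 7.22 and 7.41 in dry seeds (-1.32 ± 0.16, adjusted p = 1.39e-05). GA2OX2 fell (-0.35 ± 0.092), a call lost without imbibed replicate 1 (adjusted p = 0.0589).

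Of 5 genes for DELLA proteins, the repressors that gibberellin removes, 3 rose and 1 fell. RGL2 (AT3G03450), the main DELLA brake on germination, had 7.49, 7.55 and 7.51 in imbibed seeds and 5.86, 6.14 and 5.88 in dry seeds (1.56 ± 0.097, adjusted p = 8.9e-09). RGA rose by 1.05 ± 0.11 and GAI by 0.81 ± 0.090, while its relative RGL3 (AT5G17490) had 7.55, 7.44 and 7.49 in imbibed seeds and 8.57, 8.56 and 8.40 in dry seeds (-1.02 ± 0.097, adjusted p = 7.59e-07). RGL1 was not called (-0.046). Of the receptors GID1C fell (-0.68 ± 0.081) and GID1A and GID1B were not called. The F-box gene SLY1, which marks DELLA proteins for degradation, rose by 0.36 ± 0.087. Over the whole signalling list 5 of 14 rose (35.7%) and 2 fell (14.3%), against 14.2% and 10.6% of all genes.

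Among 25 regulators of dormancy and maturation 1 rose (4%, against 14.2% of all genes) and 6 fell (24%, against 10.6%), with a median of -0.14. DOG1 (AT5G45830) itself had 8.14, 8.18 and 8.49 in imbibed seeds, against 9.10, 9.17 and 9.13 in dry seeds (-0.86 ± 0.085, adjusted p = 1.18e-06), so it was 1.82-fold lower. In siliques it averaged 9.45 ± 0.019 (SD, n = 3). RDO5 (AT4G11040), a phosphatase-family protein needed for full dormancy, had 9.80, 9.79 and 9.81 in imbibed seeds and 10.43, 10.41 and 10.47 in dry seeds (-0.64 ± 0.14, adjusted p = 0.00203). The elongation factor TFIIS, also named REDUCED DORMANCY 2, fell (-0.94 ± 0.083), as did MFT, which acts in abscisic acid responses of seeds (-0.50 ± 0.099).

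PIL5 (AT2G20180) and SOM (AT1G03790), neighbouring steps in the light control of germination, moved apart. PIL5, the phytochrome-interacting factor that represses germination in the dark, had 7.54, 7.64 and 7.59 in imbibed seeds and 5.78, 5.81 and 5.98 in dry seeds (1.73 ± 0.095, adjusted p = 2.25e-09), the only rise of the list. SOM, a zinc finger repressor whose gene PIL5 activates, had 12.03, 11.91 and 11.997 in imbibed seeds and 12.95, 12.97 and 12.88 in dry seeds (-0.96 ± 0.16, adjusted p = 0.000195). FUS3, LEC1, LEC2, HUB1, HUB2 and SPT were not called.

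Messages stored for seed filling did not pass the test. None of 15 storage protein and oil body genes rose or fell, where 14.2% of all genes rose and 10.6% fell. Their changes ran from -0.16 to 0.13. They lie at the top of the array scale, where the deposited values end at 14.4 in these arrays. The cruciferin CRA1 (AT5G44120) had 14.42, 14.40 and 14.42 in imbibed seeds and 14.33, 14.34 and 14.33 in dry seeds. LEA proteins, which protect dried cells, fell in 7 of 28 cases (25%), where 10.6% of all genes fell. None rose, where 14.2% of all genes did, and the median change was -0.21. Their median member stood at percentile 99.5 of the dry arrays, and 717 of the brightest 3002 genes fell. SAG21 (AT4G02380) had 7.66, 7.56 and 7.40 in imbibed seeds and 8.96, 8.32 and 8.46 in dry seeds (-1.03 ± 0.22, adjusted p = 0.0018), and RAB28 (AT1G03120) had 10.09, 10.04 and 10.14 in imbibed seeds and 10.94, 11.11 and 10.92 in dry seeds (-0.90 ± 0.10, adjusted p = 4.14e-06). The abundant EM1 (-0.038), EM6 (-0.019) and RAB18 (-0.010) were not called.

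Reserve use was mixed. Of 19 genes for oil breakdown and the glyoxylate cycle 6 rose (31.6%) and 5 fell (26.3%), where 14.2% of all genes rose and 10.6% fell. Their median member stood at percentile 90.9 of the dry arrays, and of the brightest 3002 genes 1086 rose and 717 fell. The peroxisomal malate dehydrogenase PMDH1 (AT2G22780) had 10.72, 10.65 and 10.57 in imbibed seeds and 9.78, 9.76 and 9.74 in dry seeds (0.89 ± 0.071, adjusted p = 1.22e-07). ICL, isocitrate lyase, rose by 0.58 ± 0.074, MFP2 by 0.59 ± 0.074 and LACS7 by 0.60 ± 0.13. The acyl-CoA oxidase ACX3 (AT1G06290) had 8.58, 8.50 and 8.24 in imbibed seeds and 9.98, 9.81 and 9.75 in dry seeds (-1.41 ± 0.14, adjusted p = 1.32e-06), and the lipase SDP1 fell (-0.47 ± 0.072). Among 10 galactinol and raffinose genes 3 rose (30%) and 2 fell (20%), against 14.2% and 10.6% of all genes. SIP2 (AT3G57520), a raffinose-specific alpha-galactosidase, had 7.41, 7.77 and 7.42 in imbibed seeds and 9.07, 8.96 and 8.87 in dry seeds. The galactinol synthase GOLS2 fell (-0.97 ± 0.13) and the alpha-galactosidase AGAL1 rose by 0.87 ± 0.13.

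Oxygen and redox genes included rises and falls. Of 18 genes of the low oxygen response 2 rose (11.1%) and 1 fell (5.56%), both below the 14.2% and 10.6% of all genes. The cysteine oxidase PCO1 (AT5G15120) had 9.05, 9.39 and 9.29 in imbibed seeds and 7.28, 7.27 and 7.39 in dry seeds (1.93 ± 0.098, adjusted p = 1.16e-09), and PCO2 (AT5G39890) had 8.73, 8.99 and 8.95 in imbibed seeds and 7.94, 7.87 and 7.64 in dry seeds (1.07 ± 0.11, adjusted p = 2.61e-06). They are oxygen sensors that destabilise ERF factors such as RAP2.12. ADH1, alcohol dehydrogenase, fell (-0.61 ± 0.073), while SUS1 (-0.043), HRE2 (0.018) and LBD41 (0.22) were not called. Of 15 genes for alternative respiration and mitochondrial stress 4 rose (26.7%) and 2 fell (13.3%), against the same 14.2% and 10.6%. The largest rises were those of the factor NAC013 (1.11 ± 0.095) and the alternative oxidase AOX1A (0.84 ± 0.20). Of 13 reactive oxygen genes 4 rose (30.8%) and 3 fell (23.1%), against the same 14.2% and 10.6%. The median member of this list stood at percentile 95.9 of the dry arrays, and of the brightest 3002 genes 1086 rose and 717 fell. APX1 (AT1G07890), cytosolic ascorbate peroxidase, had 6.94, 7.05 and 6.65 in imbibed seeds and 5.53, 5.35 and 5.23 in dry seeds (1.51 ± 0.12, adjusted p = 1.38e-07). The superoxide dismutase CSD1 rose by 0.85 ± 0.11, and APX6 fell (-0.89 ± 0.10).

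Of 17 light genes 5 rose and 5 fell (29.4% each), where 14.2% of all genes rose and 10.6% fell. Clock genes fell in 7 of 20 cases (35%) and rose in 3 (15%, near the 14.2% of all genes). PHYA (AT1G09570), the photoreceptor for far-red light, had 5.96, 6.06 and 5.94 in imbibed seeds and 5.15, 5.18 and 5.24 in dry seeds (0.80 ± 0.080, adjusted p = 1.23e-06). The blue light receptor CRY2 (AT1G04400) had 6.32, 6.31 and 6.23 in imbibed seeds and 7.37, 7.39 and 7.20 in dry seeds (-1.03 ± 0.082, adjusted p = 1.18e-07). PHYB was not called (0.052). RVE2 (AT5G37260), a MYB factor related to the clock, had 7.24, 7.14 and 7.24 in imbibed seeds and 8.97, 8.96 and 8.89 in dry seeds (-1.73 ± 0.18, adjusted p = 2.6e-06), and the TCP factor CHE rose by 0.90 ± 0.094. The central clock genes CCA1, LHY and TOC1 were not called. Photosynthesis genes fell in 5 of 22 cases (22.7%, against 10.6% of all genes) and rose in none, where 14.2% of all genes rose. The list median was 5.04, 5.12 and 5.15 on the imbibed arrays and 5.13, 5.29 and 5.06 on the dry arrays, while in siliques it was 11.18, 11.20 and 11.24.

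Among 18 cell wall loosening genes 3 rose (16.7%) and 1 fell (5.56%), near the 14.2% and 10.6% of all genes. EXPA20 (AT4G38210), an expansin, had 6.64, 6.65 and 6.56 in imbibed seeds and 5.26, 5.51 and 5.48 in dry seeds (1.20 ± 0.094, adjusted p = 9.72e-08). EXPA1 (AT1G69530) had 5.90, 6.03 and 5.98 in imbibed seeds and 4.93, 5.05 and 4.84 in dry seeds (1.03 ± 0.11, adjusted p = 3.45e-06). The call of TCH4, a xyloglucan endotransglucosylase, was lost without imbibed replicate 3 (adjusted p = 0.0423 with all arrays and 0.134 without it). EXPA2 and the mannanases MAN2, MAN6 and MAN7 were not called, and MAN5 fell (-0.58 ± 0.11). Of 14 cell cycle genes CDKA1 (0.98 ± 0.070) and PCNA2 (0.81 ± 0.16) rose, a share of 14.3%, near the 14.2% of all genes. None fell, and the MCM2 to MCM6 replication factors were not called. Of 15 auxin genes 1 rose (6.67%, against 14.2% of all genes) and 3 fell (20%, against 10.6%). IAA2 (AT3G23030), which fell, had 5.12, 5.26 and 5.25 in imbibed seeds and 6.47, 6.27 and 6.27 in dry seeds. Aquaporins rose in 3 of 15 cases (20%, against 14.2% of all genes) by at most 0.36, and none fell. The calls of PIP1;2 and TIP3;1 were each lost without 1 array (adjusted p = 0.0951 without imbibed replicate 3 and 0.105 without dry replicate 3). Of 12 DNA repair genes 1 rose and 1 fell (8.33% each, below the shares of all genes). PARP3 fell (-0.57 ± 0.13) and PARP1 rose by 0.19 ± 0.063, a call lost without imbibed replicate 3 (adjusted p = 0.161). The call of the auxin gene ARF19 was lost without dry replicate 1 (adjusted p = 0.207).

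Markers of the tissues a seed sample could hold gave no calls. None of 10 seed coat, 6 endosperm or 9 silique markers rose or fell, where 14.2% of all genes rose and 10.6% fell. Genes as dim as most of these were seldom called, with shares of 3.23% to 11.8% in the dimmest 5 of 10 equal brightness classes. The absence of calls therefore says little about tissue content. The list medians on the imbibed arrays were 3.41, 3.47 and 3.32 for seed coat, 3.12, 3.10 and 3.05 for endosperm and 3.55, 3.505 and 3.47 for silique. On the dry arrays they were 3.53, 3.38 and 3.26 for seed coat, 3.17, 3.20 and 3.23 for endosperm and 3.51, 3.55 and 3.54 for silique. All lie near the low end of the scale, and most are genes of developing tissue. EPR1 (AT2G27380), an extensin-like gene of the endosperm, was the exception, with 10.79, 10.14 and 10.44 in imbibed seeds and 10.83, 10.95 and 10.89 in dry seeds (adjusted p = 0.249). The storage and oil body list was near the top of the scale at both stages.

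The response of NIL-DOG1 was set beside that of rdo5-1, whose seeds were sampled at the same stages on separate arrays. Across all genes the log2 changes of the NIL-DOG1 seeds and the rdo5-1 seeds had a Pearson correlation of 0.849, and over the 957 genes changed at least 2-fold in NIL-DOG1 it was 0.979, with 948 of the same sign and 9 of opposite sign. These are correlations across genes, which are not independent replicates. TT4 changed by 5.24 in NIL-DOG1 and 5.62 in rdo5-1, MAPKKK19 by -4.29 in NIL-DOG1 and -3.70 in rdo5-1, and DOG1 by -0.86 in NIL-DOG1 and -1.05 in rdo5-1. Median list changes were 0.93 in NIL-DOG1 and 0.91 in rdo5-1 for ribosomal proteins, and -0.61 in NIL-DOG1 and -0.31 in rdo5-1 for rapid stress factors, and these differences between medians were not tested. The difference between genotypes was called for 6 genes (0.0200%), of which 5 had the more positive change in rdo5-1. At an unadjusted p under 0.05 there were 1948. The count fell to 1 gene with only the arrays compared, to 1 with the replicate block, and to between 1 and 3 when any 1 of the 6 NIL-DOG1 arrays was left out. APUM9 (AT1G35730) was called in each of these fits (adjusted p of at most 4.9e-06), while the other calls of that split were each lost in most of them.

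The largest of these differences was in APUM9, a Pumilio RNA-binding protein. In NIL-DOG1 it had 3.19, 3.299 and 3.09 in imbibed seeds and 3.12, 3.36 and 3.13 in dry seeds, near the low end of the scale and overlapping. In rdo5-1 it had 8.94, 8.28 and 8.62 in imbibed seeds and 3.72, 4.01 and 4.05 in dry seeds. The NIL-DOG1 change minus the rdo5-1 change was -4.70 ± 0.19 (SE; adjusted p = 3.14e-09). The abscisic acid receptor PYR1 had 8.85, 9.13 and 8.99 in imbibed and 9.05, 9.14 and 9.11 in dry NIL-DOG1 seeds, with 9.73, 9.999 and 9.86 in imbibed and 9.14, 9.01 and 9.19 in dry rdo5-1 seeds, a difference between responses of -0.86 ± 0.13 (SE; adjusted p = 0.0484). That call was lost when any of the 6 NIL-DOG1 arrays was left out (adjusted p of 0.052 to 0.159) and with the replicate block (adjusted p = 0.0625). HB33, a zinc finger homeodomain factor, rose in NIL-DOG1 by 0.77 ± 0.072 and changed by 1.49 in rdo5-1, a difference of -0.71 ± 0.10 (SE; adjusted p = 0.0365). It too was lost without any 1 of the 6 arrays (adjusted p of 0.0585 to 0.107) and with the replicate block (adjusted p = 0.0625).

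**Figure D5:**
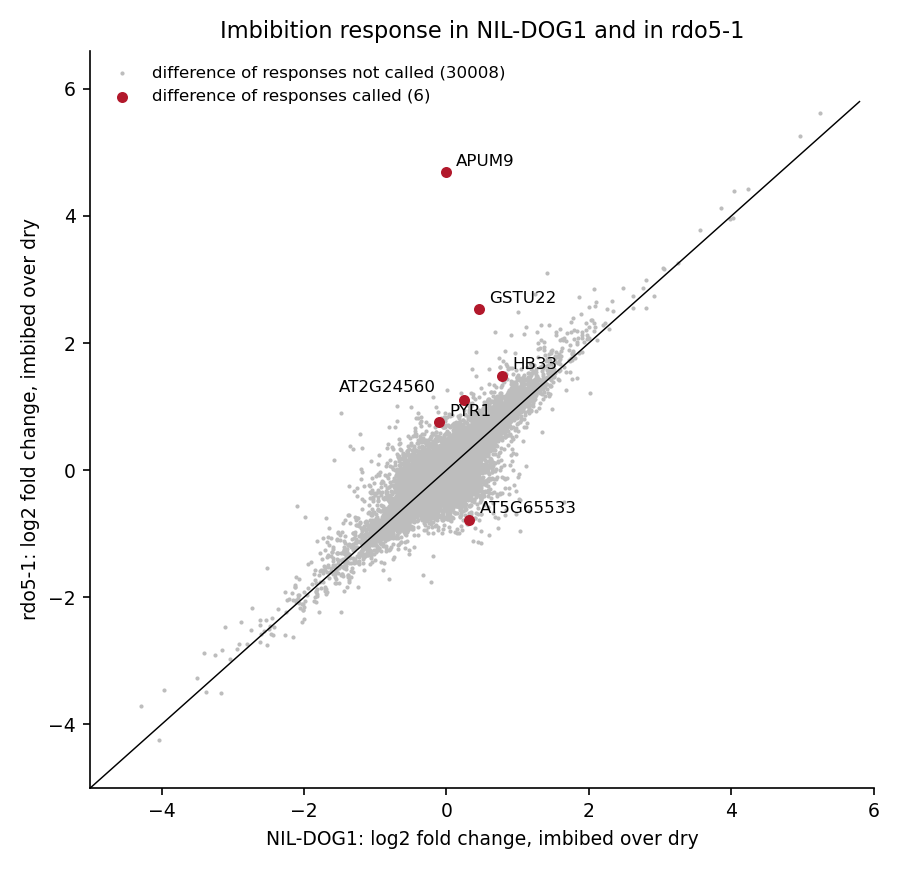
Log2 fold change of imbibed over dry seeds for each of 30014 genes, in NIL-DOG1 on the horizontal axis and rdo5-1 on the vertical axis, with the line of equal change. Most genes follow the line; the 6 red points are the genes whose difference was called, with APUM9 at -0.012 in NIL-DOG1 and 4.69 in rdo5-1.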

How the data were processed

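Total RNA of 18 samples was hybridised to Affymetrix AGRONOMICS1 arrays, from 6 ug of RNA labelled with a 3' IVT kit per the labels' protocols. The values deposited by the authors are log2 values of 30014 genes made with RMA, per the submitters' processing notes. The version, the probe sets and whether normalization was joint: not given in the sources used here. Groups and replicate numbers came from the labels. A TAIR10.1 gene table matched 29464 codes and gave 10277 symbols.

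limma 3.58.1 in R 4.3.3 fitted 1 mean per group of 6 to all 18 arrays (lmFit, eBayes; 12 residual degrees of freedom), without a filter. Named genes were the 12 largest rises and 12 largest falls with a symbol and 3 of each without one, among called genes with imbibed and dry arrays apart; up to 4 called members per list; 9 fixed genes; and the genes called in the genotype difference. Others are named to show a list's members. Members, lists and this rule were chosen with earlier results of these data known. Of 581 listed members in 32 lists, 569 were used. Flavonoid, WRKY, MAPKKK and organelle groups were added after seeing the values. No set test was run. Codes without a symbol or synonym are printed as codes. In simulated data with the real spread, 92 of 100 genes changed by 1 and 99 of 100 changed by 2 on the log2 scale were recovered. Alternatives were 13 settings: the arrays compared alone, no dim genes, quantile normalization again, median centring, trend and robust moderation, array weights, a replicate block and each array left out. Same-numbered arrays did not deviate together (correlations of -0.0069, 0.0060 and 0.031), so the numbers were not taken as pairs. Promoter sequences were not used here.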

Additional observations from a re-analysis of the deposited data

Results flagged for a closer look

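The genes below responded differently to imbibition in NIL-DOG1 and in rdo5-1 by limma's test of the difference between the responses. Each value is the NIL-DOG1 log2 change minus the rdo5-1 log2 change, 3 arrays per group. The difference was -4.70 ± 0.19 (SE; adjusted p = 3.14e-09) for APUM9, -2.08 ± 0.29 (SE; adjusted p = 0.0365) for the glutathione S-transferase GSTU22, -0.71 ± 0.10 (SE; adjusted p = 0.0365) for HB33, -0.85 ± 0.13 (SE; adjusted p = 0.046) for AT2G24560, -0.86 ± 0.13 (SE; adjusted p = 0.0484) for PYR1 and 1.09 ± 0.17 (SE; adjusted p = 0.046) for AT5G65533. GSTU22 had 3.09, 4.098 and 3.64 in imbibed and 2.89, 3.45 and 3.13 in dry NIL-DOG1 seeds, which overlap, and 5.71, 5.39 and 5.37 in imbibed and 2.80, 3.13 and 2.94 in dry rdo5-1 seeds, which do not. AT5G65533 was the gene with the more positive change in NIL-DOG1, at 0.32 there and -0.78 in rdo5-1. Apart from APUM9, these calls were close to the threshold, and their number changed with the processing.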

How the results depend on the processing

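Over the 13 alternative settings, genes called higher ranged from 3682 to 4493 and lower from 2699 to 3457. All were within 1.5 times of 4265 and 3195. No named gene that was called changed its direction, and named genes not called were left out of that check. List medians carry no test: 14 of them moved by more than the spread between replicates and 402 did not, and those of gibberellin metabolism, cell wall loosening, light, clock and aquaporin genes changed sign within -0.13 to 0.060. Leaving out single arrays gave 3682 to 3793 higher and 2699 to 2896 lower, and 5350 of the 7460 calls and 940 of the 957 at least 2-fold calls held in every such fit. Quantile normalization again gave 3905 higher and 3457 lower (381 and 488 at 2-fold, against 505 and 452), and median centring 4493 higher and 2830 lower. With the replicate number as a block (replicate block) 4162 were higher and 3094 lower. The genotype difference fell to 1 gene with only the arrays compared and to 1 with the replicate block, and to between 1 and 3 when single arrays were left out, against 6; fewer arrays enter some of these fits, and otherwise the cause was not tested. Of the named calls, ABA2, GA2OX2, TCH4, PARP1, ARF19, PIP1;2 and TIP3;1 were lost without 1 array. Values of dim genes hold background, and 3.23% of the dimmest 3002 genes were called.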

Other observations

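Some groups outside the lists above were counted after their values had been seen, so the counts only describe these arrays. Of 65 WRKY transcription factors 15 fell (23.1%) and 4 rose (6.15%), against 10.6% and 14.2% of all genes. Beside WRKY18 and WRKY33, falls of over 2-fold were seen in WRKY28, with 4.95, 4.99 and 5.07 in imbibed seeds and 7.19, 6.63 and 6.92 in dry seeds, in WRKY17, with 7.37, 7.37 and 7.43 in imbibed seeds and 9.19, 9.17 and 9.11 in dry seeds, and in WRKY8 (-1.19 ± 0.11). WRKY7 (0.63 ± 0.14) and WRKY22 (0.50 ± 0.11) were among those that rose. Of 13 kinases named MAPKKK, 6 fell (46.2%, against 10.6% of all genes) and none rose, with a median of only -0.061. MAPKKK14 had 5.33, 5.16 and 4.99 in imbibed seeds and 7.56, 7.31 and 7.70 in dry seeds, a change of -2.36 ± 0.12 (SE; adjusted p = 1.07e-09).

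Codes on the mitochondrial genome that were called all fell. The RNA was labelled with a 3' IVT kit, and how far these values follow transcript amounts was not tested. Of 93 codes on that genome 39 fell (41.9%, against 10.6% of all genes) and none rose, 19 of them falling at least 2-fold (against 1.51% of all genes), with a median of -0.32. The median over the 93 codes was 5.53, 5.44 and 5.60 on the imbibed arrays and 6.19, 5.94 and 6.29 on the dry arrays, which do not overlap. Of 14 codes on the plastid genome none was called, where 24.9% of all genes were.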
